A study of Mus musculus with 4 samples.

Results

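Genes of protein folding, translocation and stress signalling in the endoplasmic reticulum (ER) were followed in the colon of mice with TNBS colitis, with and without ginger extract or zingerone. The set holds 41 genes, chosen by name with earlier results of these data known. They are 16 chaperones and disulfide isomerases, 7 genes of ER degradation, 12 of the translocon and signal peptidase, and 6 stress sensors and transcription factors. A probe whose annotated symbol, or its current synonym, was a listed gene was present for 39 of them, with 45 probes in all. Sec61g and Spcs3 had no probe. Of the 16637 named genes on the array, 10056 had an intensity at or above the median of the named probes on 1 array or more, and these are called measured. Of the 39 genes with a probe, 35 were measured, while Calr, Derl3, Atf6 and Ern1 stayed below that level on all 4 arrays.

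The study divided 24 female mice into 4 groups of 6 and took colon RNA on day 7. The mock group received the vehicle alone, 0.1 ml of 50% ethanol. The TNBS group received trinitrobenzene sulfonic acid, a hapten that provokes colitis in rodents when given with ethanol, at 250 mg/kg in the same vehicle. The ginger group received the same TNBS mixed with ginger extract, and the zingerone group TNBS mixed with zingerone, a phenolic ketone of ginger. All groups therefore carry ethanol, and no group received ginger extract or zingerone without TNBS. The strain is labelled BALB/c for the mock sample and BALC/c for the other 3. Each group was measured on 1 array, so the differences below come without error or test, and their precision is limited by this number. Whether the RNA on an array came from 1 mouse or several is not in the labels. Ginger extract and zingerone were given in various amounts, and the amount behind each array is not stated either.

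Secreted and membrane proteins enter the ER through the Sec61 channel, lose their signal peptide to the signal peptidase, and fold with the help of chaperones such as BiP and of protein disulfide isomerases. Proteins that fail to fold are handed to the degradation machinery around SEL1L and SYVN1 and destroyed in the cytosol. When unfolded proteins accumulate, the sensors IRE1, PERK and ATF6 switch on the unfolded protein response through XBP1, ATF4 and cleaved ATF6. In the colon, goblet cells and plasma cells depend on this machinery because they secrete mucin and antibody in bulk.

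Some promoters of these genes carry short elements through which the response is known to act. The elements were not used to choose the genes and are shown first. RefSeq promoter windows of assembly GRCm38.p6, from 250 bases before to 50 bases after the annotated start, were given for 34 of the 41 genes, all but Spcs3, Manf, Ssr2, Atf6, Derl1, Sec61a1 and Hyou1. The ER stress response element (ERSE), spelled CCAAT, then 9 bases of any kind, then CCACG, which ATF6 and XBP1 bind together with the CCAAT-binding factor NF-Y, was searched on both strands. It matched in 39 of all 32851 windows (0.119%) and in 9 of the 34 genes (26.5%). The element was defined on promoters of ER chaperones such as Hspa5, so its presence there is background knowledge and no new finding. The related ERSE-II, spelled ATTGG, then 1 base of any kind, then CCACG, whose first letters are a CCAAT box on the other strand, matched in 12 of 32851 windows (0.0365%) and in 2 of the 34 genes. Each ERSE also contains a CCAAT box, and CCAAT by itself was present in 37.4% of all windows and in 26 of the 34 genes (76.5%). The XBP1-binding element UPRE (TGACGTGG) was found in 0.676% of windows and in 0 of the 34. The core of the amino acid response element (TGATGNAA), which ATF4 binds with C/EBP proteins, was found in 3.97% of windows and in 1 of the 34, Herpud1. The 32851 windows belong to 27025 gene symbols, and a gene was counted if any of its windows matched. Shares of windows and shares of genes therefore have unlike units. A match is a description of letters and not evidence of binding. The ERSE and ERSE-II matches are given 5′ to 3′ on the strand where the element reads as spelled, with the element in capitals and its coordinates in brackets:
Hspa5 (chr2:34772025-34772043): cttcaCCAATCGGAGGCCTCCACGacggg
Hsp90b1, upstream match (chr10:86705638-86705656): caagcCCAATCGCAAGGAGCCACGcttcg
Hsp90b1, downstream match (chr10:86705533-86705551): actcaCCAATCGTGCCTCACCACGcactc
Calr (chr8:84847075-84847093): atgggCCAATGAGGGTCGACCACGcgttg
Canx (chr11:50325800-50325818): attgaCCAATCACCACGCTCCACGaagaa
Pdia6 (chr12:17266491-17266509): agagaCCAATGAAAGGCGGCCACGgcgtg
Dnajc3 (chr14:118937827-118937845): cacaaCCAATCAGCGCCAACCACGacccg
Creld2 (chr15:88819520-88819538): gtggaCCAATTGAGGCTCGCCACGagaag
Derl3 (chr10:75893242-75893260): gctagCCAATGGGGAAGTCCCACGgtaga
Syvn1 (chr19:6046532-6046550): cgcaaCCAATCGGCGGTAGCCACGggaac
Dnajb11, ERSE-II (chr16:22857852-22857862): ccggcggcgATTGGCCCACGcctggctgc
Herpud1, ERSE-II (chr8:94386377-94386387): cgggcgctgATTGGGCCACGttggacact

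The promoters of Hspa5, Hsp90b1 and Herpud1 are given as the 250 bases before the start, in the direction of the gene. Matches to ERSE, ERSE-II and the amino acid response core are in capitals, and separate CCAAT boxes stay in lower case. Hspa5 and Hsp90b1 encode the major ER chaperones, and Herpud1 holds both an ERSE-II and an amino acid response core, the latter on the opposite strand and therefore seen as its reverse complement. The Hspa5 window lies on the plus strand at chr2:34771840-34772089, Hsp90b1 on the minus strand at chr10:86705445-86705694, and Herpud1 on the plus strand at chr8:94386179-94386428:
Hspa5: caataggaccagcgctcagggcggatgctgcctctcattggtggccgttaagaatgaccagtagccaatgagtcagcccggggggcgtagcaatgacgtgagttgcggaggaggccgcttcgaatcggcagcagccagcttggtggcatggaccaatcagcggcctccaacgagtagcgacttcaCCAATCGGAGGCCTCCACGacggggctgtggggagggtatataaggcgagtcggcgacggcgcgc
Hsp90b1: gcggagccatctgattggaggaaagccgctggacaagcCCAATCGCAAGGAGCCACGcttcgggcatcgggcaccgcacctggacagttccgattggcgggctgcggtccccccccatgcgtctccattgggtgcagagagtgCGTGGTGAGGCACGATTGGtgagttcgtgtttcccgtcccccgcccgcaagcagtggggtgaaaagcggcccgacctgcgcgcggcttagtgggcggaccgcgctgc
Herpud1: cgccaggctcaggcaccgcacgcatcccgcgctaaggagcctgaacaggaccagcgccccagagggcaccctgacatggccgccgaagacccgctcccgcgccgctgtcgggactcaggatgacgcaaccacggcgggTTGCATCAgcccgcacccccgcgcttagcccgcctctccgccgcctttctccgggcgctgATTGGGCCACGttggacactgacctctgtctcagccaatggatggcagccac

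**Figure D1:**
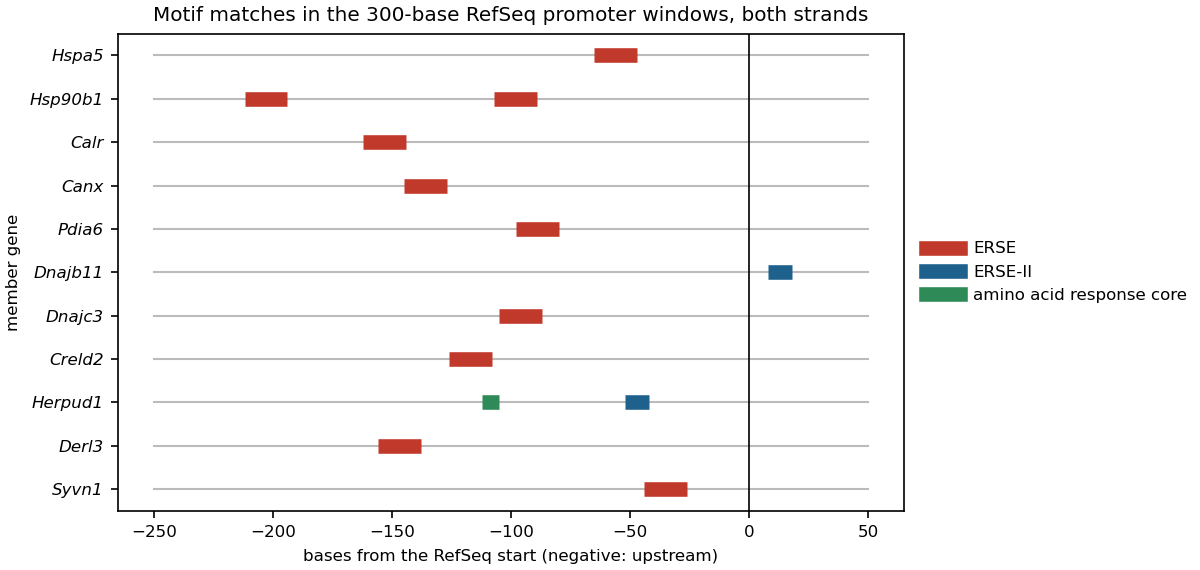
Positions of the ERSE, ERSE-II and amino acid response core matches in the promoter windows of the 11 member genes that hold one, in bases from the RefSeq start, negative upstream (grey line: the 300-base window). All ERSE matches lie upstream of the start, between -212 and -26, and the ERSE-II of Dnajb11 lies after it, from 8 to 18.

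The deposited values are Cy3 intensities that share nearly 1 distribution across the arrays, with sorted values at most 1.84% apart, and a median of 238.2 on mock. A level near the top of the scale is therefore mainly a rank, and levels of different genes are not compared. Epithelial markers of the colon were present, with all 13 listed genes measured and Epcam, an epithelial adhesion protein, at 23352.5 on mock and 16460 on TNBS. Differences are called at 1.5-fold, which is 0.58 on the log2 scale, and at 2-fold. The one spread that 1 array a group allows is that between the probes of a gene: over 1775 measured genes with 2 probes, the TNBS-minus-mock differences of the 2 probes were a median of 0.40 apart (log2), with a 95th percentile of 1.35. For ginger minus TNBS the median gap was 0.25 and the 95th percentile 0.95, and for zingerone minus TNBS they were 0.33 and 1.23. No member's difference in these 3 comparisons exceeded the 95th percentile of that comparison.

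TNBS against mock asks how colitis altered these genes, and the set split rather than moving one way. Of the 35 measured genes, Edem1, Sel1l, Atf4 and Ddit3 were at least 1.5-fold higher on the TNBS array, and Pdia4, Dnajb11, Sec61a1 and Ssr2 at least 1.5-fold lower. These 4 and 4 genes are 11.4% of the set each way, beside 11.9% of all measured genes higher and 12.2% lower, so the share that differed was that of the array as a whole. One gene, Ssr2, passed 2-fold (lower), where 4.52% of all measured genes did, and none was 2-fold higher, where 5.08% did. The median difference was -0.16 (log2, TNBS minus mock), with 14 genes above mock and 21 below, against a median of -0.04 over all measured genes. Genes of degradation and stress signalling were among those higher, and genes of folding and translocation among those lower.

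Ginger extract with TNBS was compared with TNBS alone, on the TNBS array already used above. No measured gene of the set was 1.5-fold higher on the ginger array, beside 6.06% of all measured genes, and 1 of 35, Ssr3, was 1.5-fold lower (2.86%, beside 6.4%). None passed 2-fold in either direction, beside 1.35% higher and 2.48% lower. The median was -0.01 on the log2 scale, and 0.02 over all measured genes. The differences ran from -0.73 for Ssr3 to 0.50 for P4hb.

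Zingerone with TNBS differed from TNBS alone in more of these genes. Pdia4, Dnajb11, Herpud1, Sec61a1 and Ssr2 were at least 1.5-fold higher on the zingerone array, and Ssr3, Atf4 and Ddit3 at least 1.5-fold lower. The 5 higher genes are 14.3% of the set, beside 13.1% of all measured genes, and the 3 lower ones 8.57%, beside 8.6%. Dnajb11 alone passed 2-fold (4.57% of all measured genes were 2-fold higher and 2.96% lower). The set's median was 0.05 and that of all measured genes -0.02 (log2). Both shares lay near those of the array at large, and what follows describes which genes they were.

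**Figure D2:**
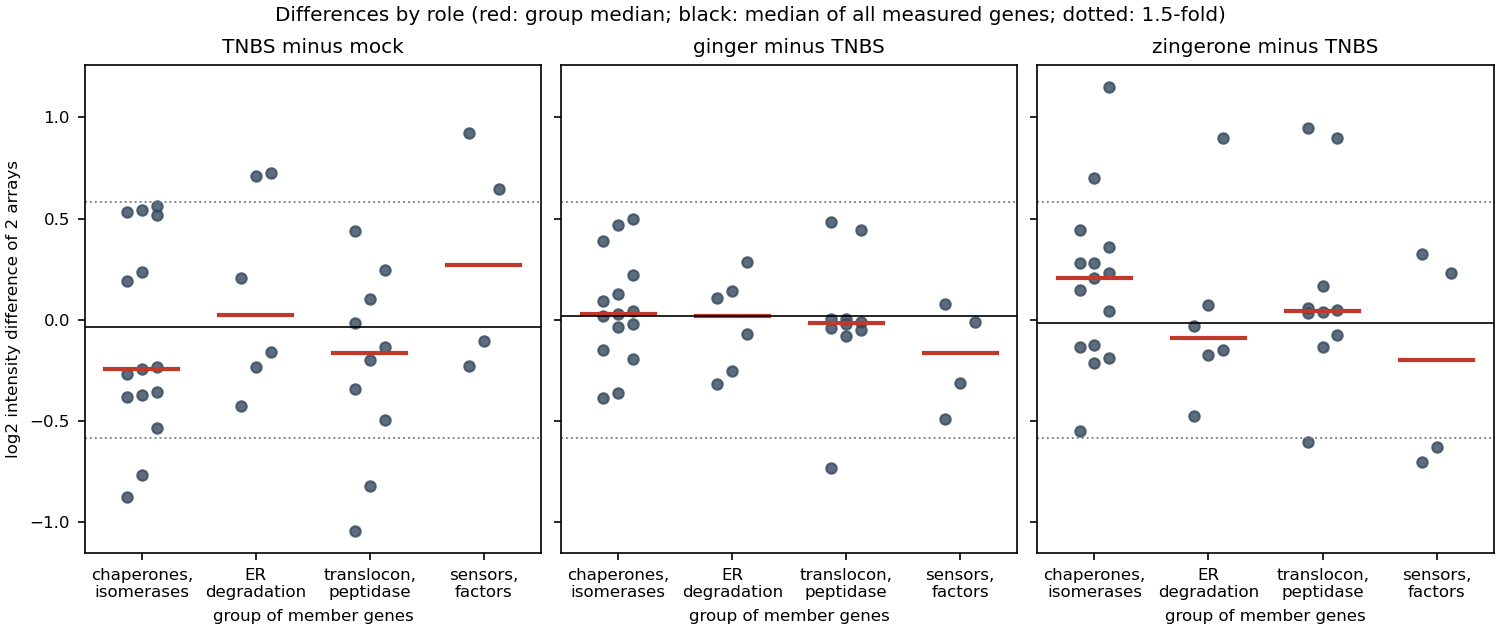
Log2 intensity difference of 2 arrays for each of the 35 measured genes (points), by role, for TNBS minus mock, ginger minus TNBS and zingerone minus TNBS; red bars are group medians, the black line the median of all measured genes and dotted lines 1.5-fold. Points spread to both sides in each role for TNBS minus mock, and 34 of the 35 lie within 1.5-fold for ginger minus TNBS.

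Chaperones and disulfide isomerases were of mixed direction on the TNBS array. Of 15 measured, 6 lay above mock and 9 below, with a median of -0.24 (log2). None was 1.5-fold higher, beside 11.9% of all measured genes, and 2 (13.3%) were 1.5-fold lower, beside 12.2%. Hspa5 encodes BiP, the ER Hsp70 that also holds the stress sensors inactive. Its intensity was 5242 (mock), 7509 (TNBS), 7397 (ginger) and 7739 (zingerone), so that the 3 arrays with TNBS lay together and 1.43-fold (TNBS) above mock. Hsp90b1, which encodes the ER Hsp90 GRP94, had the same shape at 3817.5, 5648, 5504 and 5183.5. It was 1.48-fold higher on TNBS than on mock, just under the 1.5-fold line, and within 1.09-fold of TNBS on both other arrays. Both promoters hold ERSE matches, Hspa5 1 and Hsp90b1 a pair, as printed above.

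The 2 members at least 1.5-fold lower on TNBS had another shape. Dnajb11, an ER J-protein that delivers clients to BiP, read 1022 (mock), 558 (TNBS), 773 (ginger) and 1237 (zingerone). It was 1.83-fold lower on TNBS than on mock and 2.22-fold higher on zingerone than on TNBS, while ginger lay between, 1.39-fold above TNBS. Pdia4 (ERp72), a disulfide isomerase, read 728 (mock), 428 (TNBS), 499 (ginger) and 696.5 (zingerone). It was 1.70-fold lower on TNBS than on mock, with zingerone 1.63-fold and ginger 1.17-fold above TNBS. TNBS was the lowest of the 4 arrays for both genes, and zingerone stood near or above mock.

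The other 11 measured genes of this role differed by less than 1.5-fold in all 3 comparisons. For TNBS minus mock they lay between -0.53 for Sdf2l1, a BiP cofactor, and 0.54 for Dnajb9, a J-protein induced through IRE1 and XBP1. Pdia6, a BiP-associated isomerase, stood at 0.53 and the lectin chaperone Canx at -0.38, with its 2 probes at -0.33 and -0.44. P4hb, the abundant isomerase PDI, was 1.41-fold higher on ginger than on TNBS and 1.21-fold on zingerone. Dnajb9 was 1.31-fold lower on ginger and 1.46-fold lower on zingerone than on TNBS. The probe for Calr, the soluble partner of calnexin, read 119 on mock and at most 136 elsewhere, too dim to be measured.

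ER degradation had 2 of 6 measured genes (33.3%) 1.5-fold higher on TNBS than on mock, beside 11.9% of all measured genes. On zingerone 1 (16.7%) was 1.5-fold higher than on TNBS, beside 13.1%. None was 1.5-fold lower in the 3 comparisons, beside 12.2% (TNBS minus mock), 6.4% (ginger minus TNBS) and 8.6% (zingerone minus TNBS). With so few genes, 1 gene moves these shares by much. Edem1, a mannosidase-like protein that pulls misfolded glycoproteins out of the folding cycle, read 1540.1 (mock), 2519 (TNBS), 2020.8 (ginger) and 2269 (zingerone). It was 1.64-fold higher on TNBS than on mock, and all 3 arrays with TNBS lay above mock. Sel1l, the scaffold of the HRD1 ubiquitin ligase, read 319.5 (mock), 528 (TNBS), 443 (ginger) and 380 (zingerone). It was 1.65-fold higher on TNBS, and zingerone lay 1.39-fold and ginger 1.19-fold below TNBS. Syvn1, the HRD1 ligase itself, was 1.34-fold lower on TNBS than on mock, opposite to its scaffold.

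Herpud1, a membrane adaptor of the same ligase whose promoter is printed above, stood apart from both. Its intensity was 475 (mock), 548 (TNBS), 521 (ginger) and 1020.2 (zingerone). The zingerone array was 1.86-fold above TNBS and 1.96-fold above ginger, while the other 3 arrays lay close together. Derl1 and Derl2, derlins that form part of the exit channel, stayed within 1.22-fold in each of the 3 comparisons. Derl3, the derlin of secretory cells, was at 191 on mock and 204.8 or less elsewhere, below the level called measured. The role's median was 0.03 for TNBS minus mock, 0.02 for ginger minus TNBS and -0.09 for zingerone minus TNBS (log2).

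The translocon and signal peptidase had 2 of 10 measured genes (20%) 1.5-fold lower on the TNBS array, beside 12.2% of all measured genes. None was 1.5-fold higher, beside 11.9%. Ssr2, the beta subunit of the TRAP complex that assists the channel, read 4826 (mock), 2341 (TNBS), 3189.5 (ginger) and 4369 (zingerone). It was 2.06-fold lower on TNBS than on mock, with ginger 1.36-fold and zingerone 1.87-fold above TNBS. Sec61a1, the pore-forming subunit, read 4258 (mock), 2409 (TNBS), 3370.2 (ginger) and 4654.5 (zingerone). It was 1.77-fold lower on TNBS than on mock, with ginger 1.40-fold and zingerone 1.93-fold above TNBS. Both genes thus ran in the order TNBS, ginger and zingerone, as Dnajb11 and Pdia4 did.

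Subunits of the same complexes did not share this shape. Sec61b, a partner of Sec61a1 in the channel, read 2879 (mock), 3093 (TNBS), 3012.5 (ginger) and 2937 (zingerone), all within 1.07-fold of mock. Ssr3, the gamma subunit of TRAP, read 2772 (mock), 2526 (TNBS), 1519 (ginger) and 1663 (zingerone). Ginger was 1.66-fold and zingerone 1.52-fold below TNBS, although TNBS itself lay within 1.10-fold of mock. Ssr1, the alpha subunit, was 1.35-fold higher on TNBS in the mean of 2 probes, of which 1 differed by 0.83 and the other by 0.05 (log2).

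Ssr4 and Sec63 had probes of opposite sign and are uncertain. For Ssr4, the delta subunit of TRAP, the TNBS-minus-mock differences of the 2 probes were 0.08 and -0.76. For Sec63, a J-protein that couples the channel to BiP, those of the 4 probes were -0.49, 0.29, -0.73 and 0.14. Of the signal peptidase subunits, Spcs1 was 1.41-fold lower on TNBS and remained so on the other arrays, at 2896.5 (mock), 2057.5 (TNBS), 2060.8 (ginger) and 2131.5 (zingerone), and Spcs2 differed by at most 1.06-fold between any 2 arrays. Sec62, which acts with Sec63 beside the channel, was within 1.19-fold in each of the 3 comparisons.

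**Figure D3:**
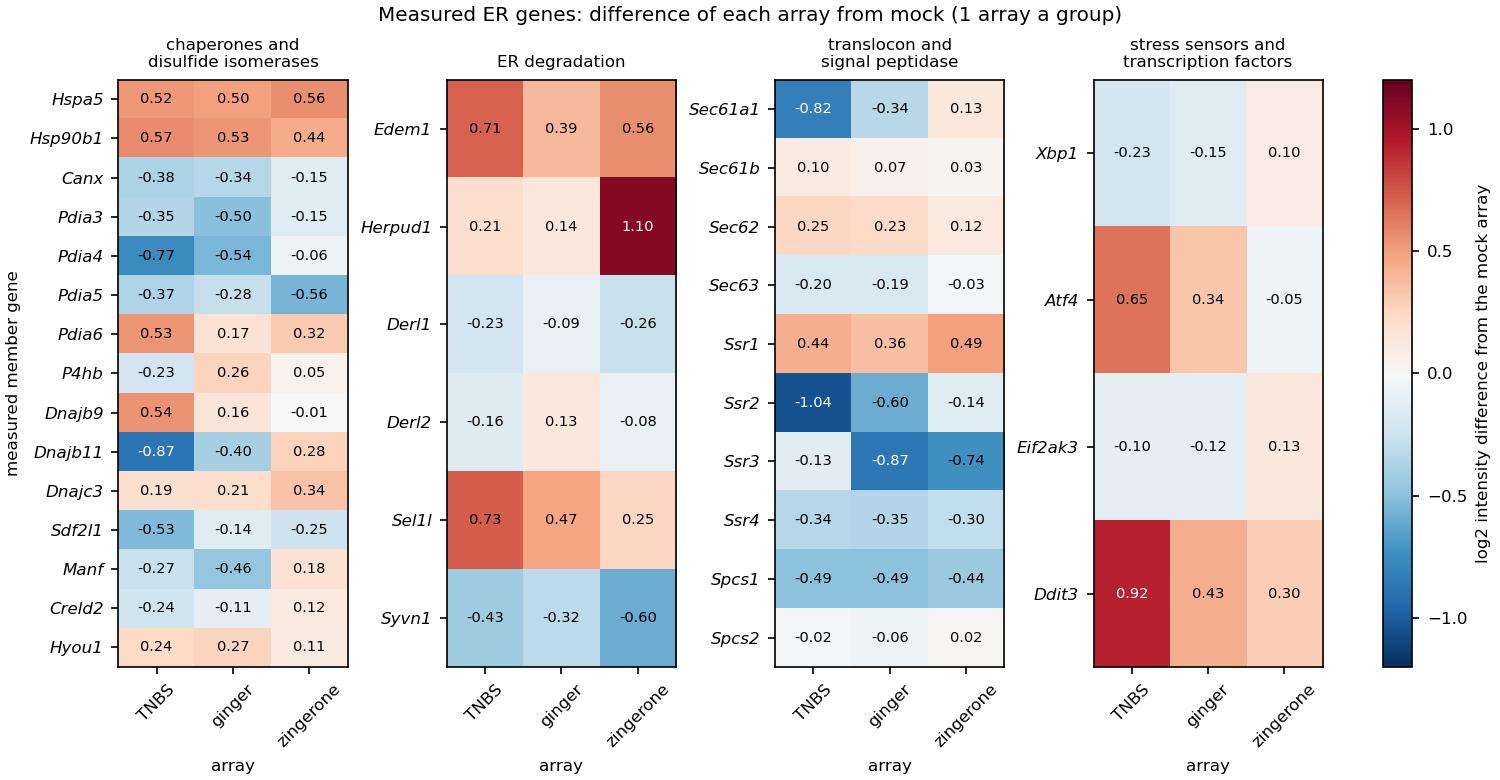
Log2 intensity difference of the TNBS, ginger and zingerone arrays from the mock array for the 35 measured genes, by role (red higher, blue lower; the number in each cell is the difference). Hspa5 and Hsp90b1 stay between 0.44 and 0.57 on all 3 arrays, while Sec61a1, Ssr2 and Dnajb11 go from -0.82, -1.04 and -0.87 on TNBS to 0.13, -0.14 and 0.28 on zingerone.

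Of the 4 measured stress sensors and transcription factors, Atf4 and Ddit3 (50%) were 1.5-fold higher on the TNBS array, beside 11.9% of all measured genes. Eif2ak3 and Xbp1 were slightly below mock, and none was 1.5-fold lower, beside 12.2%. Atf4, the factor whose translation PERK and the other eIF2alpha kinases favour, read 5610 (mock), 8787.5 (TNBS), 7079 (ginger) and 5408.5 (zingerone). It was 1.57-fold higher on TNBS than on mock, and lower than TNBS by 1.24-fold on ginger and 1.62-fold on zingerone. Ddit3, which encodes the pro-apoptotic factor CHOP and is a target of ATF4, read 339.8 (mock), 645 (TNBS), 459 (ginger) and 418 (zingerone). It was 1.90-fold higher on TNBS than on mock, with ginger 1.40-fold and zingerone 1.54-fold below TNBS. TNBS was the highest of the 4 arrays for both genes, and ginger lay between TNBS and mock.

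The sensors themselves differed little or were dim. Eif2ak3, which encodes PERK, lay within 1.18-fold in each pair of arrays, between 416.5 on ginger and 493 on zingerone. Xbp1, the factor activated by IRE1 through splicing, read 5758 (mock), 4918.5 (TNBS), 5189.5 (ginger) and 6172.5 (zingerone). It was 1.17-fold lower on TNBS than on mock and 1.25-fold higher on zingerone than on TNBS, and the array does not tell spliced from unspliced Xbp1. The probes of Ern1 (IRE1alpha) and Atf6 did not reach the measured level. Atf6 read between 158.5 and 163, and Ern1 184 (mock), 138 (TNBS), 170.8 (ginger) and 216 (zingerone).

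**Figure D4:**
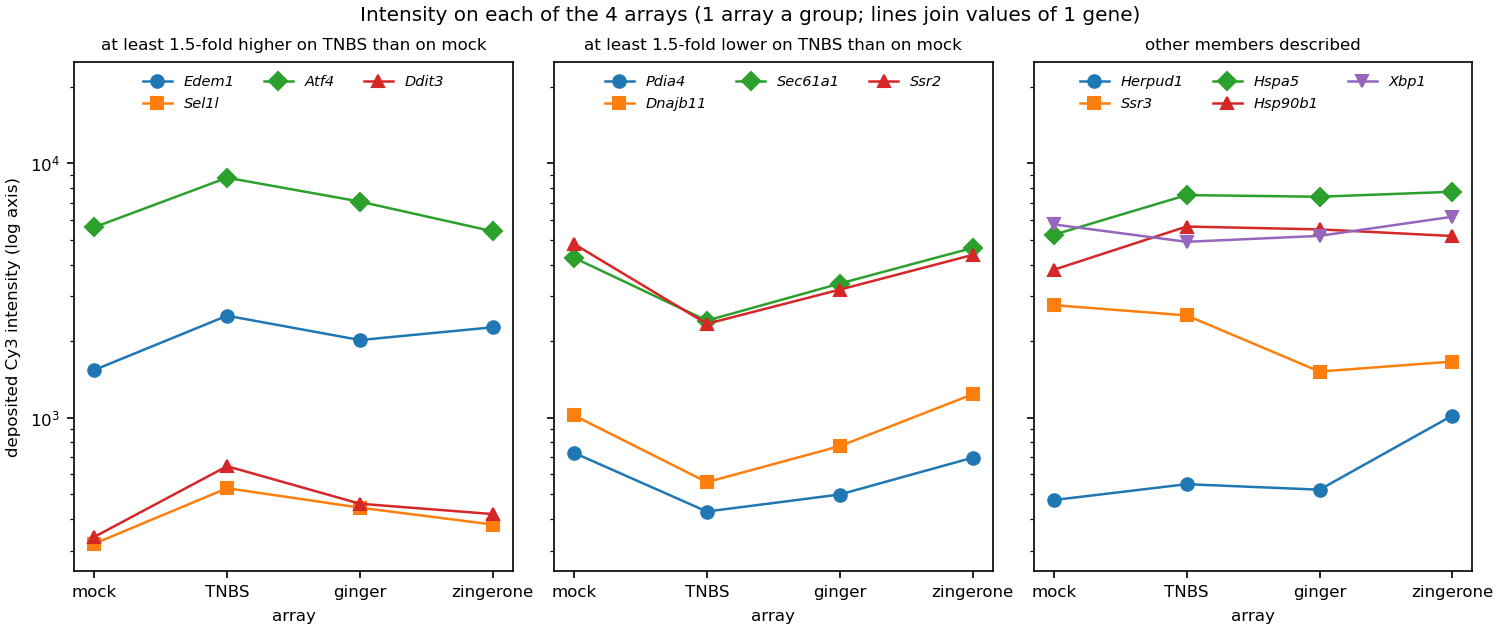
Deposited Cy3 intensity (log axis) on the mock, TNBS, ginger and zingerone arrays for the genes at least 1.5-fold higher (left) or lower (middle) on TNBS than on mock, and for 5 others described in the text (right); lines join the values of 1 gene, and levels of different genes are not comparable. Atf4 and Ddit3 peak on TNBS at 8787.5 and 645, Sec61a1 and Ssr2 are lowest there at 2409 and 2341, and Herpud1 stands at 1020.2 on zingerone alone.

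Members with an ERSE or ERSE-II did not separate clearly from the others. Of the 9 that were measured, 5 lay above mock on the TNBS array and 4 below, with a median of 0.19 and a range from -0.87 (Dnajb11) to 0.57 (Hsp90b1) on the log2 scale. The 21 measured genes whose window held neither had 8 above and 13 below, with a median of -0.13. For zingerone minus TNBS the medians were 0.15 with and 0.04 without, and for ginger minus TNBS 0.02 and -0.02. The pair with ERSE-II differed from each other on TNBS, with Dnajb11 lower and Herpud1 at 0.21. On zingerone both were higher than on TNBS, Dnajb11 by 1.15 and Herpud1 by 0.90 (log2).

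A wider list of 71 further genes of ER stress, glycosylation, targeting and degradation held 58 measured genes. It was chosen with earlier results of these data known, so a share above that of the array is a description and no test. On the TNBS array 16 of the 58 (27.6%) were at least 1.5-fold lower, beside 12.2% of all measured genes, and 7 (12.1%) higher, beside 11.9%, with a median of -0.17 (log2). Of the 16, 4 (Ern2, Agr2, Creb3l1 and Creb3l4) are also on the goblet cell list below. At 2-fold 7 were lower: Creb3l4, Uggt1, Txndc12, Agr2, Fkbp2, Stt3b and Srp19. These 7 are beside 4.52% of all measured genes. Asns and Cebpb were 2-fold higher, beside 5.08%. On ginger 6 (10.3%) were 1.5-fold higher than on TNBS, beside 6.06%, and 5 (8.62%) lower, beside 6.4%. On zingerone 13 (22.4%) were higher, beside 13.1%, and 3 (5.17%) lower, beside 8.6%.

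The wider list also holds genes known to be induced by ATF4 or CHOP, and their values were mixed. Asns, asparagine synthetase, read 753.5 (mock), 2168 (TNBS), 1211.5 (ginger) and 1730.2 (zingerone), 2.88-fold higher on TNBS than on mock. Chac1, a glutathione-degrading enzyme, read 184, 356.5, 223 and 248 in the same order, 1.94-fold higher on TNBS. Atf3, a stress factor induced by ATF4, read 189.8, 328, 239 and 189.8, 1.73-fold higher on TNBS and back at the mock value on zingerone. Chac1 and Atf3 reached the measured level on the TNBS array alone, so they were counted only because they were high there, and their folds are against dim values. Sesn2, a stress-induced regulator of growth signalling, read 254.2 (mock), 300.2 (TNBS), 375.8 (ginger) and 369 (zingerone), 1.18-fold higher on TNBS than on mock and higher again on both other arrays. Ppp1r15a (GADD34), the phosphatase subunit that ends the PERK signal, read 389.5 (mock), 566 (TNBS), 354 (ginger) and 393 (zingerone), 1.45-fold higher on TNBS. Trib3, a pseudokinase induced by CHOP, stayed below the measured level at 158.8 (mock), 163.8 (TNBS), 170.8 (ginger) and 231 (zingerone). The windows of Asns, Chac1, Atf3 and Trib3 each held the amino acid response core, which 5 of the 60 listed genes with a window did.

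Cebpb, a C/EBP factor that inflammatory cytokines also induce, read 984 (mock), 19442 (TNBS), 4546.5 (ginger) and 3868 (zingerone). It was 19.8-fold higher on TNBS than on mock, far beyond any member.

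Genes 2-fold lower on the TNBS array included several of glycosylation, targeting and folding. Stt3b, a catalytic subunit of the oligosaccharyltransferase, read 3306 (mock), 1093 (TNBS), 1972 (ginger) and 2828.5 (zingerone), 3.02-fold lower on TNBS than on mock. Uggt1, the glucosyltransferase that returns unfolded glycoproteins to calnexin, read 996, 495, 753 and 1058 in the same order, 2.01-fold lower on TNBS. Srp19, a subunit of the signal recognition particle, read 2101.5, 912.5, 1116 and 2281.5, 2.30-fold lower on TNBS and 2.50-fold higher on zingerone than on TNBS. Txndc12, an ER thioredoxin, and Fkbp2, a prolyl isomerase, were 2.24-fold and 2.56-fold lower on TNBS. Zingerone was 2.39-fold and 2.34-fold above TNBS for these 2, and ginger 1.56-fold and 1.44-fold.

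Other 2-fold differences on the zingerone array were in degradation and glycosylation. Ube2j1, an ER ubiquitin-conjugating enzyme, was 2.15-fold above TNBS. Nploc4, a cofactor of the p97 extraction ATPase, was 2.16-fold above TNBS, where it read 185, below the measured level, so its fold is against a dim value. Ostc, an oligosaccharyltransferase subunit, was 2.27-fold above TNBS. Dad1, another subunit of that enzyme, went the other way on TNBS, 1.77-fold above mock. Tmem258, a further subunit, read 3724 (mock), 3228 (TNBS), 2753 (ginger) and 121 (zingerone), so that 1 probe was dim on that array alone.

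**Figure D5:**
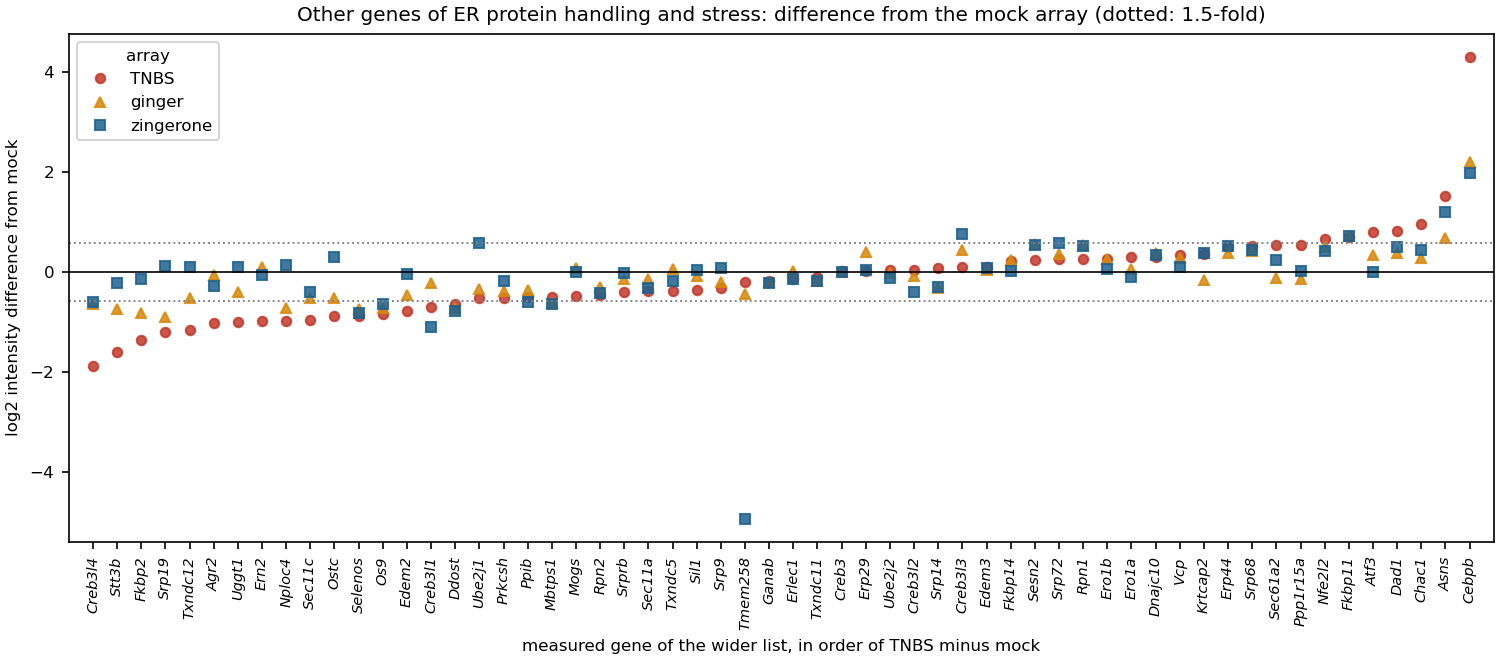
Log2 intensity difference of the TNBS, ginger and zingerone arrays from mock for the 58 measured genes of the wider list, in order of TNBS minus mock (dotted lines: 1.5-fold). The lowest on TNBS are Creb3l4 and Stt3b at -1.89 and -1.60, the highest are Asns and Cebpb at 1.52 and 4.30, and Tmem258 stands at -4.94 on zingerone alone.

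Genes of the secretory machinery that mark goblet cells were low on the TNBS array beside these differences. Ern2, the IRE1 isoform of mucous epithelium, read 714.5 (mock), 359 (TNBS), 763 (ginger) and 687 (zingerone), 1.99-fold lower on TNBS than on mock. Agr2, an isomerase needed for mucin folding, read 51505.3, 25147, 49395 and 42578 in the same order, 2.05-fold lower on TNBS. Creb3l4, an ER-bound transcription factor, read 888, 239.8, 567.5 and 585.5, 3.70-fold lower on TNBS, where it was below the measured level. Creb3l1, another such factor, read 1659, 1021.8, 1422.2 and 769.5, 1.62-fold lower on TNBS than on mock, and unlike the other 3 it was lower still on zingerone, 1.33-fold below TNBS. Of 12 measured goblet cell markers, these 4 included, 9 (75%) were 1.5-fold lower on TNBS than on mock, beside 12.2% of all measured genes. None was higher, beside 11.9%. Muc2, Spdef and Zg16 lay within 1.5-fold of mock, at -0.40, -0.23 and -0.05 (log2, TNBS minus mock). Zg16 was also lower on ginger than on TNBS, by 0.59 (log2), where the other measured markers were higher. The summed intensity of the 13 markers with a probe was 209449 (mock), 120017 (TNBS), 172045 (ginger) and 197019 (zingerone).

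The summed intensity of the 13 epithelial markers was 180683 (mock), 141455 (TNBS), 176681 (ginger) and 222174 (zingerone). Krt8 and Lgals4 are the largest parts of each sum. On TNBS, Krt8 was 1.34-fold higher and Lgals4 1.52-fold lower than on mock. On TNBS 8 of them (61.5%) were 1.5-fold lower than on mock, beside 12.2% of all measured genes, and 1 (7.69%) higher, beside 11.9%.

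Of 6 measured B and plasma cell markers, 5 lay below mock on TNBS and 1 above it. Jchain, Mzb1 and Cd79b were 1.5-fold lower, 50% beside 12.2% of all measured genes, and none was higher, beside 11.9%. Cd79a was 1.26-fold and Sdc1 1.11-fold lower, and Pou2af1 was 1.27-fold higher. Jchain, the joining chain of IgA, read 4924 (mock), 1799 (TNBS), 2947.5 (ginger) and 3834 (zingerone). The summed intensity of the 11 markers with a probe was 9213 (mock), 4934 (TNBS), 6690.4 (ginger) and 7405 (zingerone), and Jchain is the largest part of each sum. Of the listed markers, Irf4, Prdm1, Tnfrsf17, Ms4a1 and Eaf2 did not reach the measured level. Neutrophil markers ran the other way, with a summed intensity of 5885 (mock), 159413 (TNBS), 98852 (ginger) and 77662 (zingerone). S100a8 and S100a9, near the top of the scale, make up most of the sums on the 3 arrays with TNBS. The median over the 8 measured markers was 4.49 for TNBS minus mock, -1.75 for ginger minus TNBS and -2.04 for zingerone minus TNBS (log2). Cxcr2, Mmp8, Mmp9, Il1r2 and Clec4d were below the measured level on mock. They were counted only through arrays where they were high, and their folds are against dim values. Csf3r and Trem1 did not reach the measured level and are not in the median. Csf3r was 1.28-fold higher and Trem1 1.05-fold lower on TNBS than on mock. Smooth muscle markers had a summed intensity of 21192 (mock), 16837 (TNBS), 16814 (ginger) and 9959 (zingerone), with all 8 below mock on zingerone. Actg2 is the largest part of each sum. On TNBS 7 of the 8 lay below mock, while Des was 1.71-fold above it. For zingerone minus TNBS, 4 of the 8 lay above 0 and 4 below. Of these 8, 3 (37.5%) were 1.5-fold lower on zingerone than on TNBS, beside 8.6% of all measured genes, and 1 (12.5%) higher, beside 13.1%. In whole colon, fewer cells of a type and less RNA per cell cannot be told apart, and the part of these cell types in the differences of the ER genes was not tested.

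Against mock, the ginger and zingerone arrays asked which differences remained. On the ginger array Ssr2 and Ssr3 were 1.5-fold below mock (5.71% of the 35 genes, beside 5.21% of all measured genes) and none was above it (beside 4.95%). On the zingerone array Syvn1 and Ssr3 were below (beside 5.12%) and Herpud1 above (beside 6.39%). At 2-fold Herpud1 alone differed from mock, on zingerone, beside 1.53% of all measured genes higher and 1.05% lower there and 1.62% higher and 1.08% lower on ginger. The 8 genes 1.5-fold apart between TNBS and mock all lay nearer to mock on both arrays than on TNBS. This was also so for 2300 (ginger) and 2257 (zingerone) of the 2422 measured genes chosen in the same way, a choice that rests on the TNBS and mock values compared.

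Set directly against each other, the zingerone and ginger arrays differed by 1.5-fold in 3 of the 35 genes. Dnajb11 (1.60-fold), Manf (1.55-fold) and Herpud1 (1.96-fold) were higher on zingerone, 8.57% of the set beside 4.85% of all measured genes, and none was lower, beside 1.58%. Manf encodes a secreted protein that protects cells under ER stress. None differed by 2-fold, beside 0.746% of all measured genes higher and 0.358% lower. Zingerone lay nearer to mock than ginger did for 23 of the 35 genes (65.7%), beside 45.2% of all measured genes. By role these were 9 of 10 genes of the translocon and signal peptidase, 9 of 15 chaperones and isomerases, 3 of 4 sensors and factors and 2 of 6 degradation genes. The count takes any gap, however small. Among the 2422 measured genes 1.5-fold apart between TNBS and mock, zingerone lay nearer than ginger for 62.5%, and among the 8 such members for 87.5%. Of the 9 translocon and peptidase genes, Ssr2 stood -0.60 (ginger) and -0.14 (zingerone) from mock (log2), but Sec61b 0.07 and 0.03 and Spcs1 -0.49 and -0.44. The 2 probes of a gene were a median of 0.23 apart for zingerone minus ginger. Ssr4 and Sec63, called uncertain above, are also among the 9. These counts rest on 1 array of each kind, and whether another pair of arrays would give them was not tested.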

How the data were processed

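Colon RNA of 4 groups was hybridised to 1 array each. The labels' protocols give 5 µg of total RNA, an amplification kit and Cy3 dye. The authors deposited linear intensities, 1 for each probe on each array. Limma is named, with no version, in the submitters' processing notes, and how background and scale were treated is not given in the sources used here. Probes were named from the platform annotation (21020 of 29922 probes), with 3410 symbols updated through RefSeq synonyms (GRCm38.p6), 17558 current and 52 kept. The Dnajc3 probe is annotated as Dnajc3b and that of Manf as Armet. Values were put on the log2 scale, nothing added, and probes of a gene averaged, in Python 3.11.15 with pandas 2.3.3. The scripts were checked on simulated data.

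The members and lists were chosen with earlier results of these data known. Members got all 4 intensities if 1.5-fold apart in TNBS minus mock or in ginger or zingerone minus TNBS, or if they were Hspa5, Hsp90b1, Xbp1, Atf4, Ddit3, Sec61a1 or Edem1. Of the wider list, genes 2-fold apart and Atf3, Ppp1r15a, Trib3, Ern2 and Agr2 were named. Sec61b, Spcs1, Ern1, Manf, Chac1, Sesn2, Creb3l1, Dad1, Epcam and Jchain were added after their values were seen. Markers of fibroblasts and matrix, with summed intensities of 15681 (mock), 47171 (TNBS), 21956 (ginger) and 19383 (zingerone), and of exocrine pancreas, with 6112, 3985, 5370 and 4942, were also listed. Vim and Sparc make up most of each fibroblast and matrix sum. Of the 8 measured markers there, 6 lay above mock on TNBS and 2 below. Cela1 is the largest part of each pancreas sum. Of the 4 measured pancreas markers, 1 lay above mock on TNBS and 3 below. Alternatives covered normalization, background, floor, dim-gene filter, choice of probe and fold.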

Additional observations from a re-analysis of the deposited data

Results flagged for a closer look

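For 2 members, Manf and Herpud1, the ginger and zingerone arrays lay on opposite sides of TNBS and at least 1.5-fold apart. Manf, a secreted ER stress protein, read 4012 (mock), 3332.5 (TNBS), 2913 (ginger) and 4530 (zingerone), so that the 2 differences from TNBS were 0.64 apart (log2). For Herpud1 they were 0.97 apart, with ginger 1.05-fold below TNBS and zingerone 1.86-fold above. Each rests on 1 probe and 1 array a group, and the difference was not tested.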

How the results depend on the processing

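The medians and counts of the 35 measured members were recomputed under 8 alternative settings. Of 138 such values 123 stayed within 1.5 times the count or 0.1 of the median. All 101 values computed for single members that passed 1.5-fold kept their direction and stayed past it, which most settings could hardly change. Each such member has 1 probe and lies above the floor, so probe choice, floor and filter leave its values as they are. The arrays already shared nearly 1 distribution, and subtracting the 5th percentile widened these differences. The 101 values are therefore no measure of robustness. With each array's 5th percentile subtracted, 2 members were 1.5-fold lower on ginger and 5 on zingerone than on TNBS, and 2 were higher than mock on each. The share of all measured genes 1.5-fold apart grew too, to 17.3% higher and 19.1% lower for TNBS against mock, 11.8% and 10.6% for ginger against TNBS, and 18.8% and 14.3% for zingerone against TNBS. It was 9.77% and 9.77% for ginger and 12.6% and 10.2% for zingerone against mock, and 10.8% and 4.2% for zingerone against ginger. With the brightest probe per gene, 1 member was higher than mock on ginger and 2 on zingerone, and the ginger-minus-mock median changed from -0.09 to 0.065. At 2-fold the counts were 0 higher and 1 lower for TNBS against mock, 0 lower for ginger and 1 higher and 0 lower for zingerone against TNBS, 0 lower for either against mock, and 0 higher for zingerone against ginger. With the filter at the 75th percentile 5174 genes remained, of which 302 (5.84%) in place of 488 (4.85%) were higher on zingerone than on ginger. Shares then grew to 10.3% higher and 9.93% lower for ginger against TNBS, 8.45% and 8.2% for ginger against mock, 17.2% and 13.2% for zingerone against TNBS, and 9.37% and 8.58% for zingerone against mock. For TNBS against mock they were 17.2% and 18.5%. With no filter all shares were lower, 7.44% and 7.72% for TNBS against mock. The cause of these changes was not tested. The table gives no signal over background, which limits what dim genes can show. No paired analysis was possible because each group has 1 array.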
